A study of Mus musculus with 34 samples.

Results

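The liver makes most of the proteins that clot blood and most of the complement proteins that mark microbes for destruction, and 38 mouse genes for these plasma factors were followed here, chosen as a list of named coagulation and complement genes. All 38 were found once in each of the 3 deposited tables by gene symbol, out of 46526 named genes in the mixed-strain tumor table, 16140 in the FVB tumor table and 14074 in the Rag1-/- liver table. There were 19 coagulation members and 19 complement members. In coagulation, hepatocyte-made proteases activate each other in a chain that ends with thrombin cutting fibrinogen into fibrin, and plasmin later dissolves the clot. In complement, the classical, lectin and alternative routes build enzymes that cleave C3 and then C5, after which C5b, C6, C7, C8 and C9 assemble a pore in the target membrane. Hepatocytes secrete many of these factors at high level, and several of them are acute-phase proteins whose output moves with inflammation.

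The question addressed by the tumor comparisons was how loss of Arid1a, whose product directs the SWI/SNF chromatin remodelling complex to DNA, went with gene expression in liver tumors driven by MYC. Every animal carried LAP-tTA and TRE-MYC, so that MYC came on in hepatocytes once doxycycline was taken away, and tumor tissue was taken at death. In the FVB strain, 4 Homo tumors (Arid1a fl/fl with Alb-cre, about 100 days old), 4 Het tumors (Arid1a fl/+ with Alb-cre, about 70 days) and 4 WT tumors (Arid1a fl/fl without Cre, about 55 days) were sequenced. In a mixed C57/B6, 129 and FVB background, 8 Het tumors (with Alb-cre) and 8 WT tumors (floxed, without Cre), all about 90 days old, were sequenced. The third table held livers of FVB Rag1-/- mice with LAP-MYC and Arid1a labelled WT, about 42 days old. Of these, 3 had been given adeno-hARID1A, which supplies human ARID1A, and 3 adeno-Cre, both 14 days before collection. No liver in that table went without virus, so lower levels after adeno-hARID1A and higher levels after adeno-Cre cannot be told apart. Alb-cre acts mainly in hepatocytes, so other cells of a tumor kept the gene; Cre itself was present in every Het and Homo tumor and in no WT tumor, and in FVB age moved with genotype, so neither can be told apart from loss of Arid1a. Genotypes were taken from the genotype field, because the treatment text describes Het and Homo in the same words; the tissue field calls the Rag1-/- samples liver while their source field says liver tumor. Nothing in the labels says whether the samples of a group were separate mice, and every p-value therefore measures only the spread between these samples.

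Depth, estimated from the step between low values, was 2.28 to 5.28 M reads per library in the mixed table, 6.63 to 12.03 M in the FVB table and 8.73 to 10.61 M in the Rag1-/- table. Arid1a itself averaged 8.07 ± 0.14 in mixed Het and 8.47 ± 0.21 in mixed WT tumors (log2 CPM, CPM being reads per 1e6 reads; SD, n = 8 each), and in FVB 7.74 ± 0.23 in Homo, 7.77 ± 0.31 in Het and 8.09 ± 0.25 in WT tumors (SD, n = 4 each). In the livers mouse Arid1a averaged 6.99 ± 0.22 after ad-ARID1A and 6.84 ± 0.02 after ad-Cre (SD, n = 3 each); whether reads of the human transgene were counted on mouse Arid1a was not tested. No comparison of Arid1a passed an adjusted p of 0.05, and the whole-gene value may include transcripts that lack the deleted exons. Some tumors stood apart: mixed WT 2 was the highest of its group for 31 of the 38 members, FVB WT 2 the highest of its group for 23, and FVB Het 4 the lowest of its group for 24. The 9 hepatocyte markers (Alb, Ttr, Apoa1, Apob, Apoc3, Tat, Hpd, Cps1 and Asgr1) were detected in every group, with summed medians of 8207 CPM in FVB Homo, 7308 CPM in FVB Het and 9103 CPM in FVB WT tumors, 4732 CPM in mixed Het and 5416 CPM in mixed WT tumors, and 75793 CPM in ad-ARID1A and 78912 CPM in ad-Cre livers. The summed hepatocyte markers were also highest of their group in mixed WT 2 (11034 CPM) and FVB WT 2 (12789 CPM), and lowest in FVB Het 4 (4111 CPM). Mixed WT 2 had the lowest depth of all libraries, 2.28 M reads. In bulk tissue, fewer hepatocytes and less RNA per hepatocyte cannot be told apart.

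In mixed-strain tumors each of the 38 members had a lower mean in Het than in WT (43.9% of all genes did), and the complement genes were lower by more than the coagulation genes. In FVB tumors 11 of the 19 complement members were below 0 in Homo against WT, a share close to the 52.9% of all genes, and 18 in Het against WT, where 47.0% of all genes were. The fibrinogen genes lay above 0 in both. Over all 38 members, 18 were below 0 in Homo and 26 in Het. In livers given ARID1A, the fibrinogen genes and the terminal complement genes C8b and C9 were lower than after Cre. No member passed the threshold in any of the 5 comparisons (limma on log2 values over all genes of a table, two-sided, Benjamini-Hochberg adjusted p under 0.05), and the values below are therefore given as differences with their errors.

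The counts at an unadjusted p under 0.05 are read against the share of all genes that reached it. In mixed Het against WT, 0 members were called at the adjusted threshold, as were 0.16% of all 17552 genes tested, and 22 members had an unadjusted limma p under 0.05, all lower in Het (9 coagulation, 13 complement); 15.8% of all genes did, 7.5% lower and 8.29% higher. In FVB Homo against WT, 0 members and 0.0434% of all genes were called, and 13 members had an unadjusted p under 0.05 (8 lower: 3 coagulation and 5 complement; 5 higher: all coagulation), where 10% of all genes did, 5.64% lower and 4.37% higher. In FVB Het against WT, 0 members and 0.0248% of genes were called, and 13 members had an unadjusted p under 0.05 (12 lower: 4 coagulation and 8 complement; 1 higher: Fga), where 14.2% of genes did, 6.07% lower and 8.14% higher. These FVB comparisons share the same 4 WT tumors. In FVB Homo against Het, 0 members and 0.0% of genes were called; 1 member, C1rb, had an unadjusted p under 0.05 and was higher in Homo, where 3.86% of genes did, 2.53% lower and 1.33% higher. In that comparison 10 members were below 0, against 58.1% of genes. In ad-ARID1A against ad-Cre livers, 0 members and 0.32% of genes were called, and 11 members had an unadjusted p under 0.05 (9 lower: 5 coagulation and 4 complement; 2 higher: both complement), where 12.5% of genes did, 2.62% lower and 9.88% higher. In the livers 25 members were below 0, against 33.7% of genes. No member's groups were separate in mixed tumors, where 0.137% of all genes were.

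Leaving out single libraries or pairs of libraries changed these counts. Without mixed WT 2 and Het 5, all 38 members stayed below 0 and 15 had an unadjusted p under 0.05, all lower, where 13.8% of genes did. Without mixed WT 2 alone, Pros1 lay above 0, at 0.041. Without FVB WT 1 and WT 2, 8 members had an unadjusted p under 0.05 in Homo against WT (6 lower, 2 higher; 6.7% of genes) and 8 in Het against WT (7 lower, 1 higher; 9.15% of genes). Without FVB Het 4, 19 members did in Het against WT, of which 11 were lower and 8, all coagulation, were higher, where 15.2% of genes did. In FVB Homo against WT the 5 higher members were 4 with each library centred on its median, where 6.07% of genes were higher. With quantile normalization 2 of the 38 members were higher, as were 6.28% of genes. In the livers, median centring gave 12 members at an unadjusted p under 0.05, all lower (6 coagulation, 6 complement), where 4.63% of genes were lower and 5.83% higher, and quantile normalization gave 10 lower and 1 higher (5.04% and 5.59% of genes). With libraries weighted by their quality in limma, 12 members and 2287 genes were called at the adjusted threshold in FVB Het against WT (10 members lower; Fga and Fgg higher).

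**Figure D1:**
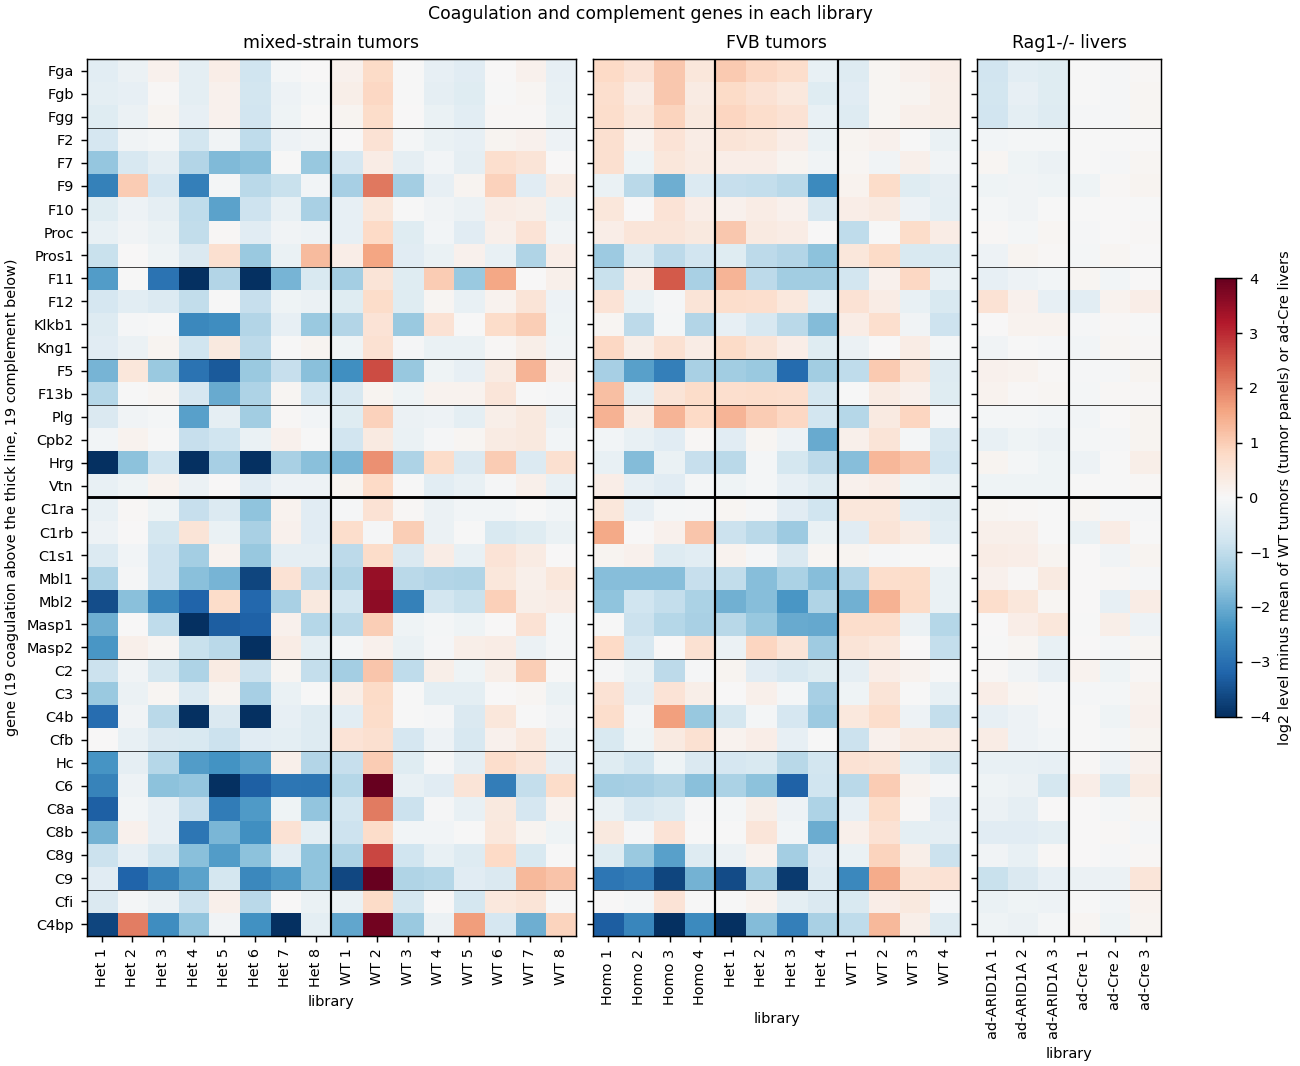
Heat map of the 38 members (rows, ordered by role) in every library (columns); colour is the log2 value minus the mean of that table's WT or ad-Cre group, with the colour scale ending at 4 in either direction. In mixed tumors most members are lower in Het libraries and WT 2 is the highest of its group for 31 of 38. In FVB the fibrinogen rows are higher in Homo, and 11 of the 19 complement rows average below 0 there, a share close to the 52.9% of all genes.

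Complement lay below coagulation in each comparison of Arid1a loss with WT. In mixed Het against WT the median log2 fold change was -0.50 over the coagulation members and -1.19 over the complement members, beside 0.05 over all genes. In FVB Homo against WT it was 0.31 for coagulation and -0.36 for complement, beside -0.02 over all genes. In FVB Het against WT it was 0.12 and -0.48, beside 0.02 over all genes. Between FVB Homo and Het it was 0.17 for coagulation and 0.29 for complement, beside -0.04 over all genes, and in the livers -0.09 and -0.13, beside 0.09. Single libraries moved several of these medians. In FVB Homo against WT the coagulation median was 0.19 without WT 4, and the complement median was -0.18 without WT 2. In FVB Het against WT, leaving out each library in turn gave coagulation medians of 0.07 to 0.21 (highest without Het 4) and complement medians of -0.77 (without WT 4) to -0.28 (without WT 2). In Homo against Het the coagulation median ranged from -0.015 without Het 4 to 0.32 without Homo 2, and the complement median was 0.12 without Het 4. The liver complement median was -0.048 without ad-ARID1A 3. With each library scored by the median of its coagulation members minus the median of its complement members, each set relative to the WT or ad-Cre mean, mixed Het tumors averaged 0.52 ± 0.42 and mixed WT tumors 0.04 ± 0.21 (SD, n = 8 each). The score was 0.66 ± 0.25 in FVB Homo, 0.54 ± 0.32 in FVB Het and 0.04 ± 0.24 in FVB WT tumors (SD, n = 4 each), and -0.03 ± 0.10 in ad-ARID1A and -0.01 ± 0.07 in ad-Cre livers (SD, n = 3 each). The WT and ad-Cre scores lie near 0 by construction. The 4 Homo scores (0.47 to 0.99) all lay above the 4 WT scores (-0.27 to 0.32), whereas the Het scores (0.18 to 0.85) overlapped them, as did the mixed Het scores (-0.03 to 1.19) those of mixed WT (-0.24 to 0.35). Restricted to members whose mean log2 CPM was 2 or more, the Homo minus WT difference in this score was 0.34 instead of 0.62. Spread also differed between the classes: the median within-group SD in the mixed table was 0.51 for coagulation and 1.0 for complement members (0.46 over all genes), while among FVB tumors it was 0.50 for coagulation and 0.61 for complement members (0.32 over all genes).

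**Figure D2:**
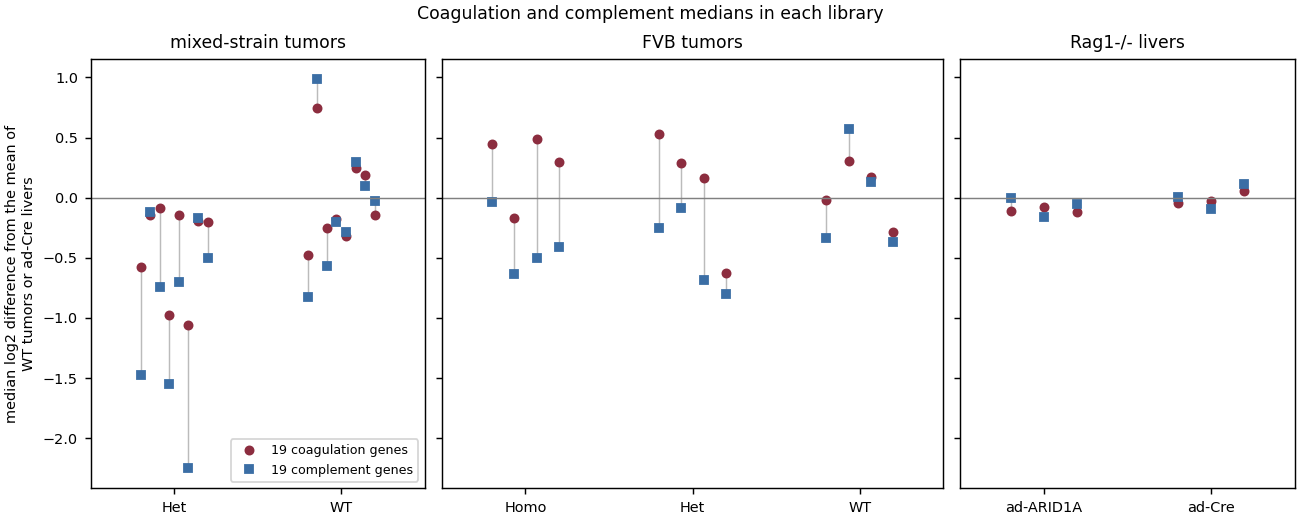
Median log2 value of the coagulation members and of the complement members in each library, relative to the mean of that table's WT or ad-Cre group; each point is a library. Complement medians of mixed Het tumors reach -2.25, where the coagulation median of the same library, Het 6, is -1.06, and liver libraries lie close to 0.

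The 3 fibrinogen chains are encoded by neighbouring genes on chromosome 3 (GRCm38): Fga at 83026076-83033627 on the plus strand, Fgb at 83040141-83049863 on the minus strand and Fgg at 83007724-83015049 on the plus strand, with 6.513 kb between Fga and Fgb and 11.026 kb between Fga and Fgg. Fibrinogen is the soluble precursor of fibrin, and its 3 chains are built into 1 molecule. Because all 3 were higher in one table and all 3 lower in another, their promoter windows are shown from 250 bases before to 50 bases after the start site (RefSeq, GRCm38.p6; 30 of the 38 members had such a window). Capitals mark matches on either strand to 3 motifs: TTCNNNGAA (STAT-type), TTNNGNAAT (C/EBP-type) and GTTAAT (a half-site of the HNF1 motif).
Fga, chr3:83025903-83026202, plus strand: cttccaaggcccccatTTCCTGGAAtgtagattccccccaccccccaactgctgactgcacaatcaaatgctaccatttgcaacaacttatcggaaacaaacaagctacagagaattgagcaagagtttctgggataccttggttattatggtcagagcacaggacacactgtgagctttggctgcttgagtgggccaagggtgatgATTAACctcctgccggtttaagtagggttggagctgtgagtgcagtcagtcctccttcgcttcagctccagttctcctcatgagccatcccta
Fgb, chr3:83049814-83050113, minus strand: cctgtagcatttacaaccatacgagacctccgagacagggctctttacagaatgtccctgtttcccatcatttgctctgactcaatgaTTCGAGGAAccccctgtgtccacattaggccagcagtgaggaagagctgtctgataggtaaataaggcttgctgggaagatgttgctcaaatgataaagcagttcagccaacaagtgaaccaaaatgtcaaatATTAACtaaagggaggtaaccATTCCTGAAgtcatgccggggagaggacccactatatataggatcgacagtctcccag
Fgg, chr3:83007474-83007773, plus strand: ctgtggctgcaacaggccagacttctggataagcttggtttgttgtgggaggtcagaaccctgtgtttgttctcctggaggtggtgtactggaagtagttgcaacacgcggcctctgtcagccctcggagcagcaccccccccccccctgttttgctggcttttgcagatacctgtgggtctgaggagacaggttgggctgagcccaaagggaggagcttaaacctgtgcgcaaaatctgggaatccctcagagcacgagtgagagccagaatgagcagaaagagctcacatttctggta

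The HNF1 half-site lay 43 bases upstream of the start of Fga and 29 bases upstream of that of Fgb, and the STAT-type match 234 and 162 bases upstream; Fgb also had a C/EBP-type match 8 bases upstream. The Fgg window held none of these letters. Over all 32851 windows of the same length, 8.3% held TTCNNNGAA, 11.5% TTNNGNAAT and 7.1% GTTAAT. Members were counted by gene, with a match in any of its windows, whereas these shares are of single windows. TTCNNNGAA was matched in 5 of 16 coagulation and 4 of 14 complement genes, TTNNGNAAT in 5 and 6, and GTTAAT in 5 and 5. TATAAA was in 3 and 2 genes (13.6% of all windows), and CACGTG, the E-box that MYC can bind, in 0 and 0 (7.15%). CAAAGTCCA (HNF4-type) was in 0 and 0 (0.475% of all windows), and the full HNF1 palindrome in 0 and 0 (0.00913%). A match describes letters and not a bound site.

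Fibrinogen was higher in FVB Homo tumors than in WT tumors. Fga, the alpha chain, had 1278, 1082, 1563 and 1009.9 CPM in Homo, 1520.2, 1305, 1201 and 600.5 CPM in Het, and 516, 771, 832 and 891 CPM in WT tumors 1 to 4. All Homo tumors lay above all WT tumors, while Het 4 fell among the WT tumors and the other Het tumors lay above them. The log2 fold change was 0.72 ± 0.26 in Homo against WT (SE; limma adjusted p = 0.37) and 0.57 ± 0.26 in Het against WT (adjusted p = 0.35). Fgb, the beta chain, had 1160.1, 891, 1531 and 923 CPM in Homo, 1226, 1098, 969 and 523 CPM in Het, and 534, 776, 792 and 861 CPM in WT tumors. Fgg, the gamma chain, had 680.3, 560.3, 781 and 545 CPM in Homo, 755, 676, 626 and 340.1 CPM in Het, and 292, 443, 478 and 491 CPM in WT tumors. For both chains the Homo and WT groups did not overlap, and Het 4 was again the lowest or near the lowest library; in this comparison 2.09% of all genes were separated in the higher direction. Their Homo against WT log2 fold changes were 0.59 ± 0.26 (limma adjusted p = 0.46) and 0.60 ± 0.24 (adjusted p = 0.41). Without FVB WT 1 and WT 2 the Fga difference in Homo was 0.50.

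The same chains were lower in ad-ARID1A livers than in ad-Cre livers. Fga had 4068, 5221 and 4905 CPM in ad-ARID1A livers and 6841, 6747 and 7181 CPM in ad-Cre livers. Fgb had 3421, 4545 and 4124 CPM after ad-ARID1A and 5595, 5557 and 5997 CPM after ad-Cre. Fgg had 2369, 3040.3 and 2817 CPM after ad-ARID1A and 3929, 3875 and 4269.9 CPM after ad-Cre. The groups did not overlap for any chain, as was so in the lower direction for 10 members (F2, Fga, Fgb, Fgg, Vtn, Cpb2, Hc, C8b, C9 and Cfi) and for 3.47% of all genes. The log2 fold changes were -0.56 ± 0.14 for Fga, -0.51 ± 0.14 for Fgb and -0.56 ± 0.13 for Fgg, with limma adjusted p of 0.15, 0.17 and 0.12. In mixed tumors the groups overlapped: Fga ranged from 364 to 769.7 CPM (median 568) in Het and from 464 to 1074 CPM (median 636) in WT, and the log2 fold changes of the 3 chains were -0.19, -0.24 and -0.22.

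**Figure D3:**
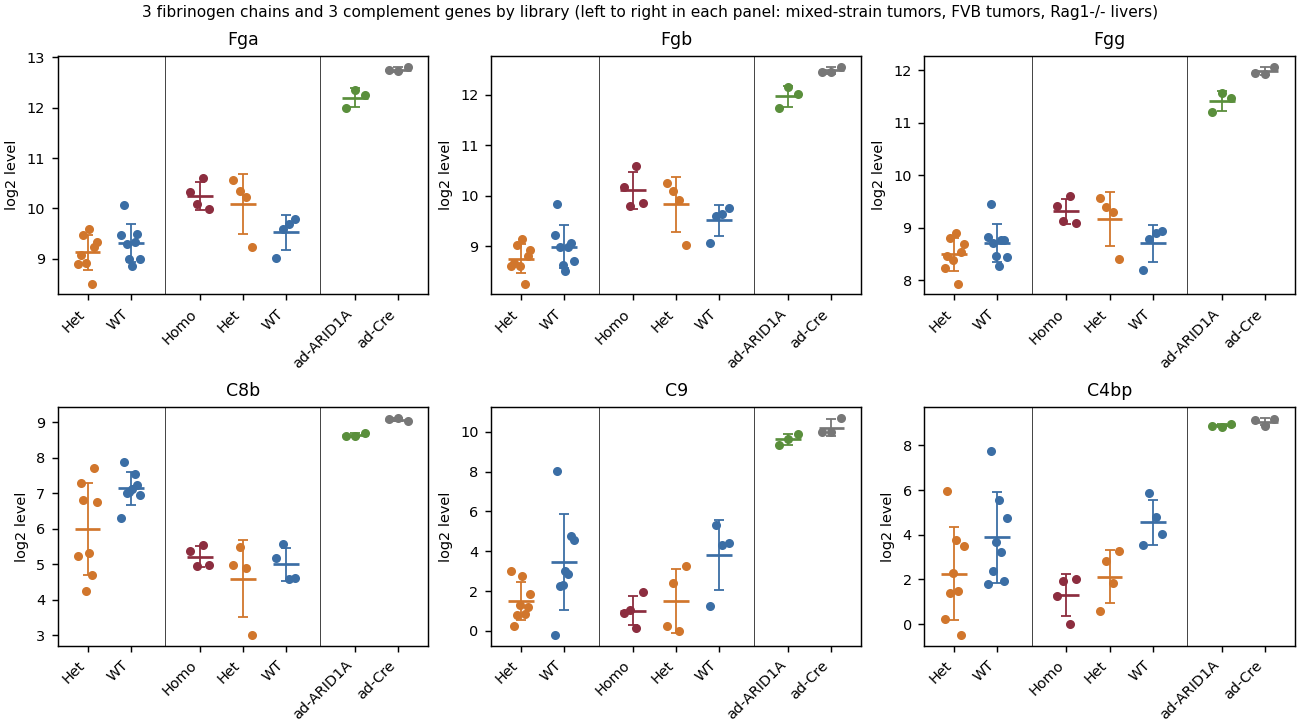
Level of Fga, Fgb, Fgg, C8b, C9 and C4bp in every library by group, in log2(CPM + 0.5) for mixed tumors and deposited log2 CPM for the others; points are libraries, lines the group means and bars ± SD. Fibrinogen lies higher in FVB Homo than in FVB WT tumors and lower in ad-ARID1A than in ad-Cre livers, and C8b and C9 are lower in ad-ARID1A livers.

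Of the vitamin K-dependent proteases and their regulators, those of the extrinsic and common routes had the smallest p in mixed tumors. F7, the protease that binds tissue factor to start clotting, ranged from 21.8 to 74.1 CPM (median 29.6) in mixed Het and from 47.2 to 119 CPM (median 72.3) in mixed WT tumors. Het 7, the highest Het tumor, lay above the WT median, so the groups overlapped. F7 had a log2 fold change of -1.08 ± 0.26 (SE, n = 8 each; limma adjusted p = 0.097), and without Het 7 of -1.24 with an adjusted p of 0.0388. F10, the protease that makes thrombin from prothrombin, ranged from 53.2 to 207 CPM (median 152) in Het and from 188 to 323 CPM (median 225) in WT tumors, again with a small overlap. Its log2 fold change was -0.83 ± 0.23 (limma adjusted p = 0.14). F7 and F10 lie 1.498 kb apart on chromosome 8. F2, prothrombin, was at -0.39 ± 0.15 in the same comparison, and at 0.41 ± 0.17 in FVB Homo and 0.24 ± 0.17 in FVB Het against WT.

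In FVB tumors F7 and F10 did not separate the genotypes. F7 had 41.6, 23.9, 36.5 and 33.6 CPM in Homo, 32.2, 32.2, 28.8 and 24.3 CPM in Het, and 28.2, 24.6, 30.7 and 24.4 CPM in WT tumors. F10 had 109.9, 81.6, 118 and 97.0 CPM in Homo, 91.1, 98.4, 90.5 and 52.3 CPM in Het, and 96.3, 103, 69.6 and 61.4 CPM in WT tumors. The 3 groups overlapped for both genes. Homo against Het, the log2 fold changes were 0.19 ± 0.17 and 0.32 ± 0.21 (limma adjusted p = 1.0 for both); F7 was at 0.079 without Homo 1 and F10 at 0.11 without Het 4. Against WT they were 0.31 ± 0.17 and 0.32 ± 0.21 in Homo, and 0.12 ± 0.17 and 0.00 ± 0.21 in Het.

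F9 and Pros1 were lower in FVB tumors with Arid1a loss. F9, the protease missing in hemophilia B, had 13, 7.52, 4.03 and 10.8 CPM in Homo, 8.34, 8.11, 7.52 and 2.68 CPM in Het, and 17.1, 26.2, 11.2 and 12.2 CPM in WT tumors. All Het tumors lay below all WT tumors, and Homo 1 overlapped WT 3 and WT 4. Against WT, F9 was at -0.96 ± 0.43 on the log2 scale in Homo (-0.63 without Homo 3) and -1.37 ± 0.43 in Het (limma adjusted p = 0.18 in Het). Pros1, protein S, a cofactor for activated protein C, had 7.16, 13.7, 9.45 and 11.5 CPM in Homo, 14.0, 9.51, 8.63 and 6.32 CPM in Het, and 26.7, 33.4, 12.9 and 12.8 CPM in WT tumors. WT 1 and WT 2 were far above the other WT tumors, which both the Homo and the Het groups overlapped. Its log2 fold change was -0.95 ± 0.34 in Homo (limma adjusted p = 0.37) and -1.08 ± 0.34 in Het (adjusted p = 0.18), and without WT 1 and WT 2 it was -0.34 in Homo and -0.48 in Het. Proc, protein C, differed by 0.41 ± 0.30 in Homo and 0.44 ± 0.30 in Het, and by 0.070 and 0.10 without WT 1.

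In the contact and intrinsic group the largest difference was in mixed tumors. F11, the protease that activates F9, ranged from 0.753 to 52.4 CPM (median 12.7) in mixed Het and from 18.8 to 159 CPM (median 58.0) in mixed WT tumors. Het 6 was the lowest, and the groups overlapped. F11 differed by -2.41 ± 0.70 (limma adjusted p = 0.15). In FVB tumors F11 was low, with 2.64, 5.90, 26.7 and 2.01 CPM in Homo, 12.6, 2.38, 1.88 and 1.89 CPM in Het, and 2.97, 5.58, 8.75 and 4.03 CPM in WT tumors, and the groups overlapped. Klkb1, prekallikrein, the neighbour of F11 at 4.657 kb, was -1.08 ± 0.45 in mixed Het, -0.55 ± 0.38 in FVB Homo and -0.95 ± 0.38 in FVB Het tumors; it shares exon bases with Gm45753 on the same strand, so its reads may be split. F12, which starts the contact route, was -0.50 ± 0.19 in mixed Het, and Kng1, the kininogen that carries bradykinin, was 0.50 ± 0.23 in FVB Homo.

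F5, the cofactor of F10 in the prothrombinase complex, was the coagulation member with the smallest p in both FVB comparisons with WT. It had 23.1, 12.9, 8.82 and 23.9 CPM in Homo, 22.5, 20.8, 6.87 and 22.2 CPM in Het, and 28.8, 122, 81.6 and 41.1 CPM in WT tumors. Neither Homo nor Het overlapped WT, and 1.98% of all genes were separated in the lower direction in Homo and 2.47% in Het. F5 had a log2 fold change of -1.89 ± 0.49 in Homo (limma adjusted p = 0.20) and -1.84 ± 0.49 in Het (adjusted p = 0.12), and without WT 1 and WT 2 of -1.87 in Homo. In mixed Het it was -1.66 ± 0.61, with 11.5 to 168 CPM (median 40.9) in Het and 21.9 to 754 CPM (median 124) in WT tumors. In livers it was 0.12 ± 0.09, with 1060.1, 1031 and 976 CPM in ad-ARID1A and 904, 910.2 and 1003 CPM in ad-Cre livers, and the groups overlapped. F13b, the carrier subunit of the fibrin-crosslinking factor XIII, was -0.71 ± 0.26 in mixed Het, 0.51 ± 0.35 in FVB Homo and 0.34 ± 0.35 in FVB Het.

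In fibrinolysis and its control, Hrg stood out in mixed tumors. Hrg, a histidine-rich plasma glycoprotein that binds plasminogen and heparin, ranged from 0.569 to 60.8 CPM (median 32.9) in Het and from 29.1 to 376 CPM (median 117) in WT tumors. Het 3, at 60.8 CPM, and other Het tumors lay above the lowest WT tumor, so the groups overlapped, and Het 6 was nearly without it. Hrg had a log2 fold change of -2.79 ± 0.77 (limma adjusted p = 0.14), which was -2.74 without WT 2 and Het 5. Plg, plasminogen, was -0.60 ± 0.29 in mixed Het, 0.96 ± 0.46 in FVB Homo and 0.61 ± 0.46 in FVB Het, with 347, 167, 335 and 228 CPM in Homo, 338, 269, 232 and 79.3 CPM in Het, and 59.3, 169, 237 and 128 CPM in WT tumors. Het 4 was low and WT 1 lower still, so that the 3 groups overlapped; without WT 1 the Plg differences were 0.58 in Homo and 0.23 in Het. Cpb2, which slows fibrinolysis by removing lysines from fibrin, had 89.9, 77.7, 70.0 and 99.7 CPM in Homo and 70.5, 101, 83.9 and 24.1 CPM in Het tumors, against 112, 138, 90.5 and 61.8 CPM in WT. Het 4 alone set its Homo against Het difference of 0.44 ± 0.37, which was -0.012 without it. In livers Cpb2 had 258, 280.1 and 271 CPM in ad-ARID1A and 304, 311 and 340.1 CPM in ad-Cre livers, with no overlap, a log2 fold change of -0.24 ± 0.08 and a limma adjusted p of 0.28. Vtn, vitronectin, an inhibitor of the terminal complement pore that also binds the plasminogen activator inhibitor, was -0.18 ± 0.14 in mixed Het.

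Of the 7 classical and lectin initiators, 4 had an unadjusted p under 0.05 in FVB Het against WT, all lower, and all 7 were below 0 (median -0.92). In Homo against WT 1 did, also lower, and 4 were below 0, and in mixed Het 5 did, all lower. Of all genes, 6.07% were lower at that p in FVB Het, 5.64% in FVB Homo and 7.5% in mixed Het. Below 0 were 47.0% of all genes in FVB Het and 52.9% in FVB Homo. Masp1, a protease that mannose-binding lectin activates, had 29.2, 16, 13.2 and 11.9 CPM in Homo, 13.5, 10.2, 7.31 and 7.01 CPM in Het, and 47.2, 47.5, 24.9 and 13.2 CPM in WT tumors. Of the Het tumors, Het 1 overlapped WT 4, and Homo overlapped WT. Masp1 differed by -0.83 ± 0.40 in Homo, -1.68 ± 0.40 in Het against WT (limma adjusted p = 0.10) and 0.84 ± 0.40 in Homo against Het (adjusted p = 1.0). Without WT 1 and WT 2 the Het value was -0.98, and without WT 4 it was -2.06 with an adjusted p of 0.0215. In mixed tumors Masp1 ranged from 5.23 to 109 CPM (median 34) in Het and from 45.2 to 193 CPM (median 92.4) in WT, with overlap, a log2 fold change of -1.82 ± 0.54 and a limma adjusted p of 0.15. Mbl1 and Mbl2 encode the mannose-binding lectins that recognise microbial sugars. In FVB, Mbl1 was listed at 0, which stands for at most 1 CPM, in Homo 1, 2 and 3 and in Het 2 and 4, with 1.71 CPM in Homo 4, 1.64 CPM in Het 1 and 1.36 CPM in Het 3, against 1.43, 5.24, 5.43 and 2.71 CPM in WT tumors. WT 1 was as low as the Homo and Het tumors that were above the floor. Its log2 fold change of -1.50 ± 0.40 in Homo and -1.41 ± 0.40 in Het (limma adjusted p = 0.21 and 0.14) is limited by that floor. Mbl2 had 3.14, 5.46, 4.92 and 3.92 CPM in Homo, 2.53, 2.93, 1.88 and 4.11 CPM in Het, and 2.53, 25.1, 16.2 and 7.94 CPM in WT tumors, and WT 1 was as low as the Het tumors; the log2 fold change was -1.16 ± 0.55 in Homo (-0.69 without WT 2) and -1.79 ± 0.55 in Het, and without WT 1 the Het value had a limma adjusted p of 0.0431. C1rb, a C1r protease gene, had 13, 4.59, 5.13 and 9.85 CPM in Homo and 2.53, 2.16, 1.67 and 3.78 CPM in Het tumors, without overlap, against 3.39, 6.63, 5.74 and 3.46 CPM in WT. Its Homo against Het log2 fold change was 1.61 ± 0.38 (unadjusted p = 0.00091, limma adjusted p = 1.0), and 0.923% of genes were separated in that direction; C1ra, its close copy, may share its reads. C1s1, the partner protease, and Masp2, which cleaves C4 and C2 in the lectin route, were at -0.62 ± 0.27 and -1.02 ± 0.48 in mixed Het (Masp2 at -0.58 without Het 6), C1ra at -0.48 ± 0.20. In livers Mbl1 was the member that lay above, with 107, 98.4 and 120.3 CPM in ad-ARID1A and 94.4, 97.0 and 91.8 CPM in ad-Cre livers, in a comparison where 13.9% of all genes were separated in that direction; Mbl2 was 0.42 ± 0.18 and C1s1 0.22 ± 0.09.

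Of the convertase components, C3, the central complement protein, was the most abundant. It had 3444, 1808, 3350.1 and 2740.1 CPM in FVB Homo, 2336, 2665, 2210.3 and 929 CPM in Het, and 2034, 3304, 2272 and 1885 CPM in WT tumors, and the groups overlapped. C3 differed by 0.25 ± 0.32 (log2) in Homo and -0.29 ± 0.32 in Het against WT, and -0.47 ± 0.23 in mixed Het. In livers C3 had 9742, 8481 and 7858 CPM after ad-ARID1A and 7913, 7591 and 8841 CPM after ad-Cre, with overlap. C4b, the complement C4 gene, was -1.76 ± 0.56 in mixed Het (limma adjusted p = 0.17), where it ranged from 29.7 to 567 CPM (median 358) in Het and from 424 to 1037 CPM (median 614) in WT; its close copy C4a may share reads. C2 and Cfb, the catalytic chains of the classical and alternative C3 convertases, lie 85 bases apart and each share exon bases with Gm20547 on the same strand, so that their log2 fold changes (-0.54 and -0.46 in mixed Het) may include its reads.

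The terminal pathway was the role group with the largest median difference in mixed tumors, a median log2 fold change of -1.44. In it 6 of 6 members had an unadjusted p under 0.05, all lower, as did 7.5% of all genes in that direction. Hc, which encodes C5, ranged from 61.7 to 379 CPM (median 109) in mixed Het and from 171 to 661 CPM (median 289) in mixed WT tumors. Het 7 was the highest Het tumor, and the groups overlapped. Hc had a log2 fold change of -1.45 ± 0.38 (limma adjusted p = 0.12), which was -1.17 without WT 2 and Het 5; its limma adjusted p was 0.0388 without Het 7 and 0.0394 with the replicate number as a block. C6, a pore subunit, was listed at 0 in Het 5 and reached 8.38 CPM (median 0.997) in mixed Het, and ranged from 1.0 to 201 CPM (median 7.44) in mixed WT tumors, with WT 2 far above the rest; the log2 fold change of -2.43 ± 0.76 (limma adjusted p = 0.16) was -1.54 without WT 2 and Het 5. C9, the subunit that polymerises into the pore, ranged from 0.682 to 7.51 CPM (median 1.88) in mixed Het and from 0.376 to 262 CPM (median 7.12) in mixed WT, and the WT range held the whole Het range; its log2 fold change was -1.95 ± 0.82, and -1.30 without WT 2. C8a, C8b and C8g, the 3 chains of C8, were at -1.43 ± 0.49, -1.13 ± 0.43 and -1.19 ± 0.46 (log2) in mixed Het.

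In FVB tumors C6 and C9 were lower in Homo and Het than in 3 of the 4 WT tumors. C6 had 5.03, 5.13, 5.62 and 4.03 CPM in Homo, 5.35, 4.11, 1.36 and 7.36 CPM in Het, and 6.02, 26.2, 14.0 and 12.3 CPM in WT tumors; Homo did not overlap WT, and WT 1 lay close to the Homo and Het tumors. C9 had 1.89, 2.07, 1.10 and 3.81 CPM in Homo, 1.19, 5.39, a listing at 0 and 9.65 CPM in Het, and 2.36, 39.4, 20.1 and 21.1 CPM in WT tumors, with WT 1 as low as the Homo tumors. On the log2 scale C9 differed by -2.81 ± 0.85 in Homo (limma adjusted p = 0.28) and -2.33 ± 0.85 in Het (adjusted p = 0.24), and C6 by -1.39 ± 0.49 and -1.74 ± 0.49. C8g was at -1.17 ± 0.47 in Homo. The terminal members had a median log2 fold change of -0.84 in Homo and -0.63 in Het. Hc had 82.1, 69.6, 103 and 77.2 CPM in Homo, 72.5, 75.6, 53.8 and 69.1 CPM in Het, and 171, 167, 88.6 and 71.5 CPM in WT tumors, and WT 4 overlapped both; its log2 fold change was -0.50 ± 0.25 in Homo and -0.79 ± 0.25 in Het, and the Het value had a limma adjusted p of 0.18, or 0.0409 without WT 4.

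In livers C8b and C9 were lower after ad-ARID1A than after ad-Cre. C8b had 393, 393 and 416 CPM in ad-ARID1A and 541, 556 and 523 CPM in ad-Cre livers, without overlap; its log2 fold change of -0.43 ± 0.08 had the smallest limma adjusted p of any member (0.055). C9 had 648, 792 and 949 CPM in ad-ARID1A and 1009.9, 1009.9 and 1663 CPM in ad-Cre livers, also without overlap (-0.60 ± 0.20, limma adjusted p = 0.27), and its difference was -0.36 without ad-Cre 3. Hc had 1409, 1418 and 1389 CPM in ad-ARID1A and 1808, 1509.7 and 1951 CPM in ad-Cre livers (-0.31 ± 0.11, limma adjusted p = 0.30). C4bp, described next, had the largest difference in FVB, and its window is shown with those of C8b and C9 (RefSeq, GRCm38.p6; capitals as above).
C8b, chr4:104766067-104766366, plus strand: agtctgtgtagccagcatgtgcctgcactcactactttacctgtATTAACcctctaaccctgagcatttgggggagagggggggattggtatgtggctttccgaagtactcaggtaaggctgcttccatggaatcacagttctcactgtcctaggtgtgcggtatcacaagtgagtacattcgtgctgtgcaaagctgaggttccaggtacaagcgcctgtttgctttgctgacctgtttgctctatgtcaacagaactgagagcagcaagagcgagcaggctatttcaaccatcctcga
C9, chr15:6445096-6445395, plus strand: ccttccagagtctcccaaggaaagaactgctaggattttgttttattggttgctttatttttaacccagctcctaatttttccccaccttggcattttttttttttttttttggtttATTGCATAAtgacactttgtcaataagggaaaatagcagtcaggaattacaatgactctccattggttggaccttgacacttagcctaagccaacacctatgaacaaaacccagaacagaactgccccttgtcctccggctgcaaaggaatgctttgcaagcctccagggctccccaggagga
C4bp, chr1:130661569-130661868, minus strand: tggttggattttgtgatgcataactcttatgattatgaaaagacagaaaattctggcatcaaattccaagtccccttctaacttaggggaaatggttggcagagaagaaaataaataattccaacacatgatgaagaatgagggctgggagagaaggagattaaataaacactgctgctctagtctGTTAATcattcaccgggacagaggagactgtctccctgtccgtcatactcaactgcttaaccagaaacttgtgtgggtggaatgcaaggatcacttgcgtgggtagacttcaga
The HNF1 half-site lay 206 bases upstream of the start of C8b and 64 bases upstream of that of C4bp, and C9 had a C/EBP-type match 133 bases upstream.

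Of the control proteins, C4bp, which speeds decay of the classical convertase, showed the largest difference. In FVB it had 2.39 and 3.81 CPM, a listing at 0 and 4.03 CPM in Homo 1 to 4, 1.49, 7.01, 3.56 and 9.65 CPM in Het, and 11.6, 57.7, 27.5 and 16.6 CPM in WT tumors. Neither Homo nor Het overlapped WT. C4bp had a log2 fold change of -3.25 ± 0.63 in Homo (limma adjusted p = 0.099) and -2.43 ± 0.63 in Het (adjusted p = 0.11), and without WT 1 and WT 2 of -3.12 in Homo and -2.29 in Het. In mixed tumors it ranged from 0.223 to 60.8 CPM (median 3.37) in Het and from 3.03 to 214 CPM (median 10.4) in WT, with a log2 fold change of -1.62 ± 0.92 that was -1.07 without WT 2, and its limma adjusted p with the replicate block was 0.0155. Cfi, the protease that inactivates C3b and C4b, was -0.36 ± 0.22 in mixed Het; in livers it had 471, 505 and 488 CPM in ad-ARID1A and 553, 526 and 617 CPM in ad-Cre livers, without overlap (-0.21 ± 0.09, limma adjusted p = 0.37).

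**Figure D4:**
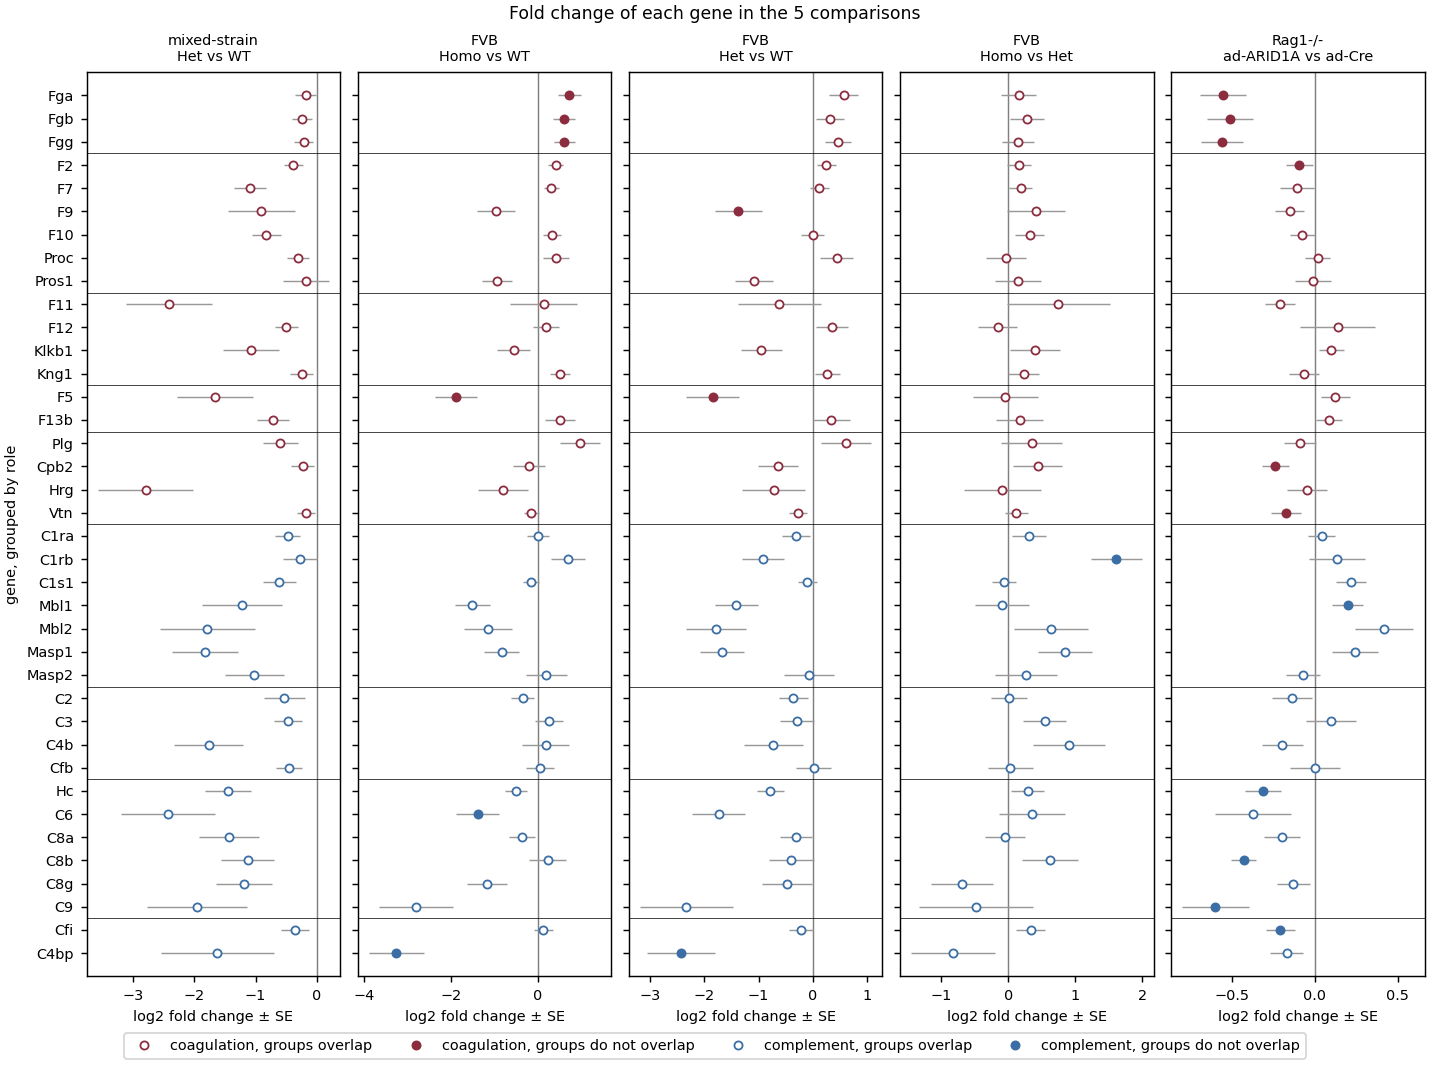
Log2 fold change ± SE (limma) of the 38 members in the 5 comparisons, grouped by role; filled points are members whose groups do not overlap, and the x axes differ between panels. The terminal members are the lowest set in mixed Het, the 3 fibrinogen genes are above 0 in FVB Homo and below 0 in the livers, and C4bp reaches -3.25 in FVB Homo.

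Per kilobase of exon, C3 and Fga were the most abundant members in the tumor groups, and Fga and Fgg in ad-Cre livers. In FVB Homo tumors C3 averaged 551, Fga 409.8 and Fgg 307 CPM per kb, against 462, 250 and 203 CPM per kb in FVB WT tumors. In mixed Het tumors C3 and Fga averaged 212 and 190.3 CPM per kb, against 282 and 218 CPM per kb in mixed WT. In ad-Cre livers Fga averaged 2300 ± 75.9, Fgg 1923 ± 102 and C3 1578 ± 126 CPM per kb (SD, n = 3). Mbl1 and C4bp, both with libraries at the floor, were among the lowest members in FVB Homo tumors. Klkb1, whose reads may be split with Gm45753, averaged 0.399 CPM per kb in mixed Het tumors.

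The members stood lower among all genes in tumors than in the Rag1-/- livers, by more for complement than for coagulation members. Because the tables were normalized separately, each gene was ranked within its library among the 13016 genes named in all 3 tables. In every FVB tumor 36 of 38 members ranked below every liver library (18 coagulation, 18 complement; the exceptions were F13b and C3), as did 22.8% of the 13016 genes; in mixed tumors 29 of 38 did (13 coagulation, 16 complement), as did 18.3%. No member ranked above all livers in either, as did 27.7% and 21.1% of genes. The median percentile of the coagulation members was 83.0 in FVB tumors, 87.8 in mixed tumors and 98.0 in ad-Cre livers, and of the complement members 38, 63.5 and 97.2. Ranks were not adjusted for gene length, and percentiles near the top have little room to differ. C9 had a median percentile of 11.2 (1.5 to 60.7) in FVB tumors and 16.3 (3.5 to 94.4) in mixed tumors, against 98.8 to 99.6 in the livers. Mbl1 had 4.3 (1.2 to 21.6) and 12.7 (0.7 to 69.0), against 87.8 to 91.0, and F11 13.4 (6.6 to 54.8) and 44.1 (5.6 to 86.4), against 91.0 to 94.2. In mixed tumors Klkb1 was the farthest from the livers, with a median of 13.1 (1.9 to 23.8), against 98.0 to 98.2. Its reads may be split with Gm45753, which shares its exon bases. In FVB tumors C3, Fga and Fgb were the members closest to the livers; C3 had 99.9 in FVB tumors and 100.0 in mixed tumors, against 99.9 in ad-Cre livers. These tumor medians pool WT with Het and, in FVB, Homo tumors, whereas the livers were labelled Arid1a WT. In FVB WT tumors alone the medians were 47.7 for C9, 13.6 for Mbl1 and 16.9 for F11. In FVB Het and Homo tumors they were 11.5 and 7.3 for C9, 3.3 and 1.7 for Mbl1, and 8.3 and 16.2 for F11. Tumors and livers also differ in Rag1, age, virus and, for the mixed set, strain, so this is a description without a test.

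**Figure D5:**
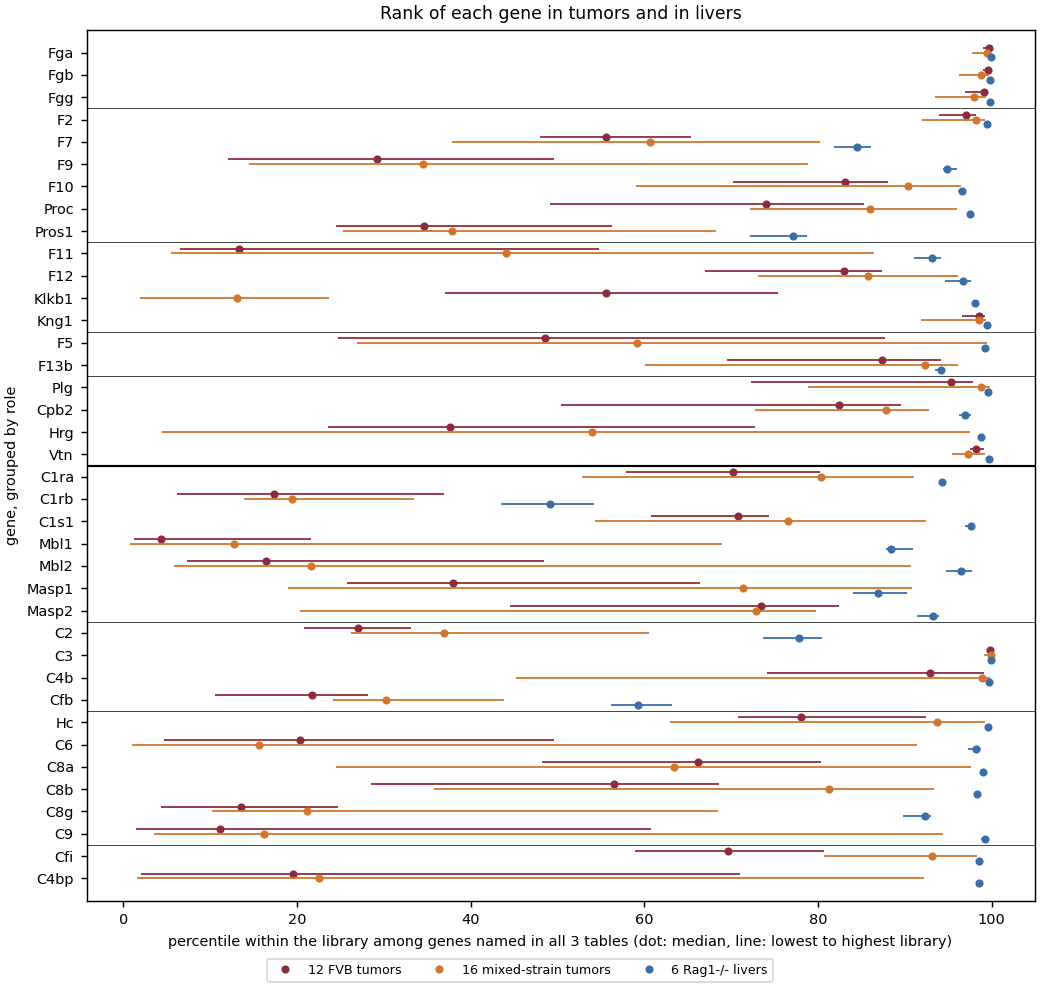
Percentile of each member among 13016 genes within a library, for FVB tumors, mixed-strain tumors and Rag1-/- livers; dots are medians and lines run from the lowest to the highest library. Fibrinogen and C3 stay near the top in tumors and livers, whereas C9, Mbl1 and F11 have median percentiles of 11.2, 4.3 and 13.4 in FVB tumors and above 87 in the livers.

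Other genes of the same systems that were not members were tallied from lists of related genes. Of 30 other coagulation genes tested in mixed tumors, 14 had an unadjusted p under 0.05, all lower in Het, and the median was -0.56; Vwf, made by endothelial cells to carry factor VIII, had 1.97 ± 1.19 in Het and 4.37 ± 1.22 in WT tumors (log2 CPM, SD, n = 8 each; -2.40, limma adjusted p = 0.082) and A2m, a broad protease inhibitor, was -2.22. Of 29 other complement genes 12 had an unadjusted p under 0.05, all lower, with a median of -0.78; Serping1, the C1 inhibitor, and Cd55, a convertase inhibitor on cells, were -1.43 and -1.55. In FVB Homo 2 of 29 other coagulation genes were lower and 3 higher at an unadjusted p under 0.05, and 5 of 26 other complement genes lower and 1 higher; in FVB Het the counts were 7 and 1, and 8 and 2. In Homo against Het they were 0 and 3, and 1 and 3, and in the livers 1 and 4 of 25, and 2 and 1 of 28. Of all genes, 7.5% were lower at that p in mixed Het. The shares lower and higher were 5.64% and 4.37% in FVB Homo, and 6.07% and 8.14% in FVB Het. They were 2.53% and 1.33% in Homo against Het, and 2.62% and 9.88% in the livers. In FVB Homo, Serpinf2, the plasmin inhibitor, was 0.55 and Colec10, a lectin, -1.96; in FVB Het, Serpinf2 was 0.58 and Apcs, serum amyloid P, -1.16 (limma adjusted p = 0.098). Of the 18 hepatocyte transcription factors, 5 had an unadjusted p under 0.05 in FVB Homo and 7 in FVB Het, all higher, and 5 in mixed Het, all lower. No gene of these lists was called in any comparison.

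Markers of other cells moved with some of these groups. The 9 hepatocyte markers were all lower in mixed Het (sums of 2111 to 5365 CPM in Het and 4668 to 11034 CPM in WT; median log2 fold change -1.48, 5 at an unadjusted p under 0.05) and had a median of -0.06 in FVB Homo, -0.37 in FVB Het and -0.11 in ad-ARID1A livers. In mixed Het 7 of 10 neutrophil markers were lower at an unadjusted p under 0.05 (sums of 6.3 to 38.7 CPM in Het and 15.2 to 180.6 CPM in WT), 5 of 9 endothelial markers, and 5 of 10 macrophage and Kupffer cell markers; 1 macrophage marker, Cd163, passed the adjusted threshold (-2.25, limma adjusted p = 0.032). In FVB Het 9 of 10 neutrophil markers were at 0 in every library (sums of 0 to 1.2 CPM in Het and 2.5 to 106.9 CPM in WT), 7 of 8 erythroid markers were lower at an unadjusted p under 0.05 (sums of 23.3 to 26.2 CPM in Het and 21.2 to 520.9 CPM in WT) and 1 stellate cell marker, Lrat, passed the adjusted threshold (-2.50, limma adjusted p = 0.023). In FVB 5 of 9 endothelial markers were lower at an unadjusted p under 0.05 in Het and 3 of 9 in Homo, and 6 of 10 stellate cell markers were in Homo, where all 10 were below 0. Of all genes, 7.5% were lower at that p in mixed Het, 6.07% in FVB Het and 5.64% in FVB Homo. In ad-ARID1A livers 9 of 9 endothelial markers and 9 of 10 stellate cell markers were above 0, in a comparison where 33.7% of all genes were below 0. Their part in the differences of the members was not tested.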

How the data were processed

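RNA was isolated with Trizol and the miRNeasy kit and made into Nugen libraries, per the labels' protocols. Per the submitters' processing notes, Trim Galore, HISAT2, SAMtools, featureCounts and the GRCm38 (mm10) genome were used; the versions, the annotation and the strand and counting settings were "not given in the sources used here". As deposited by the authors, there were 3 tables of log2 values, each normalized separately: the FVB and Rag1-/- tables hold log2 CPM, with values at or below 1 CPM listed at 0, per the file names and values. The mixed-strain table is named RPKM by the authors, but its deposited log2 values, transformed back with 1 taken off, sum to just under 1e6 in each library, as log2(CPM + 1) does, and were read so. Values carry 2 decimals, so whole reads were recovered only for low values (100.0% of them within 0.1 of a whole read, which gave the depth) and no count test was run. No column of another sample was present (0).

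The mixed table was refitted as log2(CPM + 0.5) over the 17552 genes with a mean CPM of at least 0.5; the FVB and Rag1-/- tables were used as deposited. Each table had its own limma fit (version 3.58.1, R 4.3.3; variance trend, two-sided, Benjamini-Hochberg over all genes tested, threshold 0.05), with all 12 FVB tumors in 1 fit, and was tested on simulated data. Fold changes of genes near the floor are understated. Levels between genes were compared per kb of exon (GENCODE M21), while ranks within a library were not adjusted for length. Values were given for the 3 coagulation and 3 complement members with the smallest p in each comparison, the 3 members farthest from the livers by rank in FVB tumors, and further members chosen after their values were seen. Members, lists and tests were chosen with earlier results of these data known. Replicate numbers were not taken to pair samples in the main fits. The labels' descriptions name 3 ad-ARID1A columns with the ad-Cre prefix; these were matched by number and by the virus in the title.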

Additional observations from a re-analysis of the deposited data

Results flagged for a closer look

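In 190 tests of a member within a group of 4 or 8 libraries for a highest or lowest library that stood far from the rest, 11 stood out, and chance flags about 1 in 20 groups. In mixed WT tumors, library 2 was high for Fgg (9.45, group median 8.74, log2 CPM), C8a (8.58, median 6.32), Mbl1 (6.16, median 2.23) and C1ra (7.63, median 6.97). In FVB Het tumors, F5 was low in library 3 (2.78, median 4.42), and F9 (1.42, median 2.96), F10 (5.71, median 6.50) and F13b (5.67, median 7.04) were low in library 4, while F11 was high in library 1 (3.65, median 1.08). Among the FVB Homo tumors Mbl1 was above the floor of 1 CPM in library 4 alone (0.77, median 0), the other libraries being listed at 0, and Cfb was low in FVB WT 1 (1.57, median 2.69).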

How the results depend on the processing

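The count of members called was 0 in each comparison, and it was above 0 only under these alternatives. In mixed Het against WT it was 2 with the replicate number as a block (Hc, adjusted p = 0.0394, and C4bp, adjusted p = 0.0155; 75 genes called), and leaving out each library in turn gave 0 to 2 (2 without Het 7: F7 and Hc, both with a limma adjusted p of 0.0388). In FVB Het against WT it was 12 with limma array weights, which called 2287 genes, and 0 to 2 when each library was left out (1 without WT 1, Mbl2; 2 without WT 4, Hc and Masp1). The cause was not tested. The labels do not state whether replicate numbers pair samples. Correlations of same-numbered libraries ranged from -0.20 to 0.28. Some libraries correlated best with the library of their own number and others did not, so with these few libraries pairing was not decided. In the livers, the coagulation median of -0.09 was -0.17 with median centring and -0.043 with quantile normalization. The difference between coagulation and complement in FVB Homo against WT, 0.62, was 0.34 over members with higher means. Further alternatives were chosen after seeing the data. Without FVB WT 1 and WT 2, 8 members had an unadjusted p under 0.05 in Het against WT, instead of 13 (9.15% of genes). In Homo against WT 8 did, instead of 13 (6.7% of genes). In Homo against Het there were 2 with median centring (4.63% of genes) and 2 with quantile normalization (4.72%), instead of 1 (3.86%). Without Het 4, 18 members were below 0 in Homo against Het (58.8% of genes), instead of 10 (58.1%). Of the 3 coagulation and 3 complement members with the smallest p in each comparison, 1 changed direction when a library was left out. Cpb2 in FVB Homo against Het was 0.44, and ranged from -0.012 without Het 4 to 0.68. Other members did too, such as C3 in FVB Het against WT, at -0.29 and at 0.049 without Het 4. Pros1 in mixed Het against WT was -0.18, and 0.041 without WT 2. Depth limits values near the floor of 1 CPM.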
